A study of Homo sapiens with 24 samples.

Results

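The response of LNCaP cells to the synthetic androgen R1881 was measured by RNA-seq after knockdown of WDR77 with an siRNA. The 3 libraries labelled WDR77_siRNA_R1881 (S10, S24 and S38) were compared with the 3 labelled WDR77_siRNA_Veh (S9, S23 and S37), so the comparison used 6 of the 24 libraries of the series and was described across 17893 genes. LNCaP is an established line from a human prostate adenocarcinoma that responds to androgen, and all 6 cultures were of this line alone. After the siRNA the medium was made androgen-poor, and the cells then received R1881 at 5 nM or the ethanol vehicle for 48 h. In the same experiment a non-targeting control siRNA was given with vehicle or R1881, 3 libraries each, and in a separate experiment empty-vector cells were given the same 2 treatments, again with 3 libraries each. The number of siRNA sequences used and any measure of WDR77 protein were not given in the sources used here.

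WDR77 is a WD-repeat protein that binds the arginine methyltransferase PRMT5 in the methylosome, which modifies Sm proteins and histones, and it is also known as a coregulator of androgen-dependent transcription. Androgen both raises and lowers transcription of its target genes. In luminal prostate cells it is known for driving secretory products such as prostate-specific antigen, lipid synthesis and secretion. The comparison described here asks how the transcriptome responded to androgen when WDR77 transcript was low.

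The promoters of KLK3 and KLK2, neighbouring genes for secreted kallikrein proteases, show the kind of sequence found at androgen-responsive genes, and are shown because both genes are standard readouts of androgen. A RefSeq promoter was found for WDR77, KLK3, KLK2 and FKBP5 among the 5 genes fixed as readouts. The 250 bases before the RefSeq start (GRCh38.p14) were searched on both strands for the hexamer AGAACA and for the full palindrome, which is that hexamer, 3 bases of any kind and the reverse complement of the hexamer, so each palindrome also counts as a hexamer. KLK3 (chr19:50854665-50854914, plus strand) held the hexamer, and KLK2 (chr19:50873189-50873438, plus strand), WDR77 and FKBP5 did not in this window. Capitals mark a stretch of 15 bases that starts with the hexamer in KLK3, and its nearest match in KLK2.
KLK3: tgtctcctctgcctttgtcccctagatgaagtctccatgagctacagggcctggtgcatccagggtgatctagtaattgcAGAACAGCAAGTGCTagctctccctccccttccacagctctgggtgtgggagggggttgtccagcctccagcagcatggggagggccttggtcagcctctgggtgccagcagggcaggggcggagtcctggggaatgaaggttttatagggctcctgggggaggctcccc
KLK2: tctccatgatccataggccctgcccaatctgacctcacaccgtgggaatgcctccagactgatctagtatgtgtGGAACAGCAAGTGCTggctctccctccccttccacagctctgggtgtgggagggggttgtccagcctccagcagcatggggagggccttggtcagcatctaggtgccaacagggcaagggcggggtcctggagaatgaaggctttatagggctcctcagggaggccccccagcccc
The marked stretches differed by 1 base, A1G, counted from 1 at the 5′ end of the capitals, with the KLK3 base first. Over all RefSeq promoters 12.4% of 27305 held the hexamer and 1 held the palindrome. Among the genes tested here the hexamer was in 7.58% of 11372 promoters. It was in 10.3% of the 301 promoters found for genes that rose at least 4-fold with R1881 after WDR77 siRNA, and in 9.91% of the 444 found for genes that fell as much. These shares describe letters in a short window and were not tested.

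WDR77 itself lies on chromosome 1 at 111439890 to 111449376 (minus strand, GRCh38, GENCODE 29) and overlaps the opposite-strand ATP synthase gene ATP5PB, so reads in the overlap cannot be assigned without the strand setting, which was not given. Its level in CPM (read counts of a gene relative to the library size, scaled with edgeR's TMM factors) was 11.3 in S9, 14.9 in S23 and 13.3 in S37 with vehicle, and 15.6 in S10, 13.4 in S24 and 13.8 in S38 with R1881. The 2 groups overlapped, and the log2 fold change with R1881 was 0.11 ± 0.098 (SE, edgeR quasi-likelihood test, Benjamini-Hochberg adjusted p = 0.378). With control siRNA the level was 41.7, 46.7 and 46.6 CPM with vehicle (S7, S21 and S35) and 63.8, 67.3 and 66.1 CPM with R1881 (S8, S22 and S36). All 6 knockdown libraries therefore lay below all 6 control libraries. Transcript left after WDR77 siRNA was 29.5% of the control siRNA level with vehicle (log2 fold change -1.76 ± 0.093, edgeR adjusted p = 5.74e-12) and 21.7% with R1881 (-2.20 ± 0.093, edgeR adjusted p = 8.47e-14). In control siRNA cells WDR77 rose by 0.55 ± 0.085 on the log2 scale with R1881 (edgeR adjusted p = 7.10e-06). The difference in response, -0.44 ± 0.13, did not pass the test (edgeR adjusted p = 0.294), and without S35 it was -0.49 (edgeR adjusted p = 0.133).

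The libraries with WDR77 siRNA held 16665915 to 24029882 counts and those with control siRNA 16876495 to 22282684. Replicate libraries differed by more than sampling noise in every pair of these 4 groups (chi-square per degree of freedom of 2.41 or more). Mitochondrially encoded genes took 5.47% to 6.00% of counts in the 6 libraries with WDR77 siRNA. The control vehicle library S35 stood apart, with 8.4% mitochondrial counts against 5.39% to 5.85% in the other control libraries. The 95% Wilson interval for S35, 8.39% to 8.42%, covers counting error alone and not the spread between libraries. The KLK3 level of S35 was 52.6 CPM against 204 and 203 CPM in the other control vehicle libraries. Comparisons with the control siRNA response use all 12 libraries unless S35 is said to be left out, and values without it are given beside them. The scaling factors were 1.10 to 1.11 in the vehicle and 0.893 to 0.910 in the R1881 libraries with WDR77 siRNA, so the choice of scaling bears on small changes. The labels call the 3 libraries of a group biological replicates. The p-values rest on a spread estimated for each gene over all 4 groups of the siRNA experiment, S35 included unless it is left out.

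R1881 changed the level of 9518 of 17893 genes after WDR77 siRNA at an edgeR adjusted p under 0.05, which is 53.2%. Of these 4951 (27.7% of genes tested) were higher and 4567 (25.5%) were lower. With library totals in place of TMM factors, the median over all genes shifted by -0.30 on the log2 scale and the split of the calls became 2775 higher and 8096 lower, that is 25.5% higher in place of 52.0%. Changes of at least 2-fold were called in 1422 genes upward (7.95%) and 2042 downward (11.4%). At least 8-fold, the numbers were 245 and 272, and at least 32-fold they were 75 and 68. Among called genes the median log2 fold change was 0.61 upward and -0.88 downward, and over all genes tested it was -0.02. The 3 R1881 libraries lay above all 3 vehicle libraries in 30.4% of genes and below them in 29.3%.

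**Figure D1:**
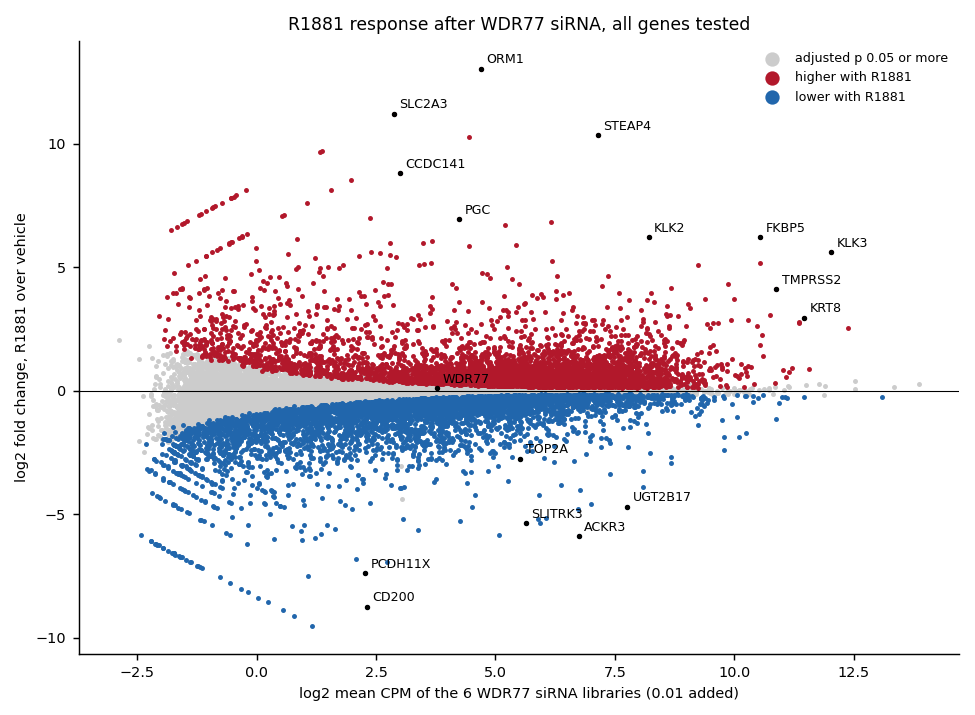
Log2 fold change of R1881 over vehicle after WDR77 siRNA (vertical axis) against the log2 mean CPM of the 6 libraries (horizontal axis), 1 point for each of the 17893 genes tested. Red points are called higher (4951), blue points lower (4567), grey points are not called, and the named genes span from ORM1 at the top to CD200 near the bottom.

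The 4 genes fixed as androgen readouts rose in every R1881 library after WDR77 siRNA. KLK3, which encodes prostate-specific antigen, was at 109 CPM in S9, 188 in S23 and 206 in S37 with vehicle, and at 8339 in S10, 8710 in S24 and 7538 in S38 with R1881. The groups lay far apart, S9 was the lowest of the vehicle libraries, and the log2 fold change was 5.61 ± 0.54 (edgeR adjusted p = 2.31e-05). KLK2, encoding a related kallikrein, was at 5.92, 9.45 and 7.51 CPM with vehicle and at 605, 629 and 514 CPM with R1881, a log2 fold change of 6.23 ± 0.37. The transmembrane serine protease gene TMPRSS2, whose promoter is part of the common fusions of prostate cancer, was at 181, 209 and 225 CPM with vehicle and at 3516, 3539 and 3640 CPM with R1881. Its log2 fold change was 4.12 ± 0.12 and its 3 R1881 libraries lay within a narrow band. FKBP5, which encodes a co-chaperone of steroid receptors, was at 36.1, 42 and 40.2 CPM with vehicle and at 2736, 3039 and 3022 CPM with R1881, a log2 fold change of 6.21 ± 0.18. The same 4 genes changed by 5.67, 6.38, 4.36 and 6.06 on the log2 scale in control siRNA cells. The differences in response were -0.07 ± 0.63 for KLK3, -0.15 ± 0.50 for KLK2, -0.24 for TMPRSS2 and 0.15 for FKBP5, and none passed the test (edgeR adjusted p of 0.741 or more). Without S35 the control responses were 5.26, 5.96, 4.23 and 5.88 and the differences 0.32 for KLK3, 0.24 for KLK2, -0.14 for TMPRSS2 and 0.31 for FKBP5, so the sign for KLK3 and KLK2 turned, and again none passed (edgeR adjusted p of 0.308 or more). For KLK3 and KLK2 the standard errors leave room for sizeable differences either way. In empty-vector cells, which were scaled separately, the log2 fold changes were 2.37 for KLK3, 3.19 for KLK2, 3.14 for TMPRSS2 and 5.07 for FKBP5, and KLK3 with vehicle was at 1286 to 1389 CPM.

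**Figure D2:**
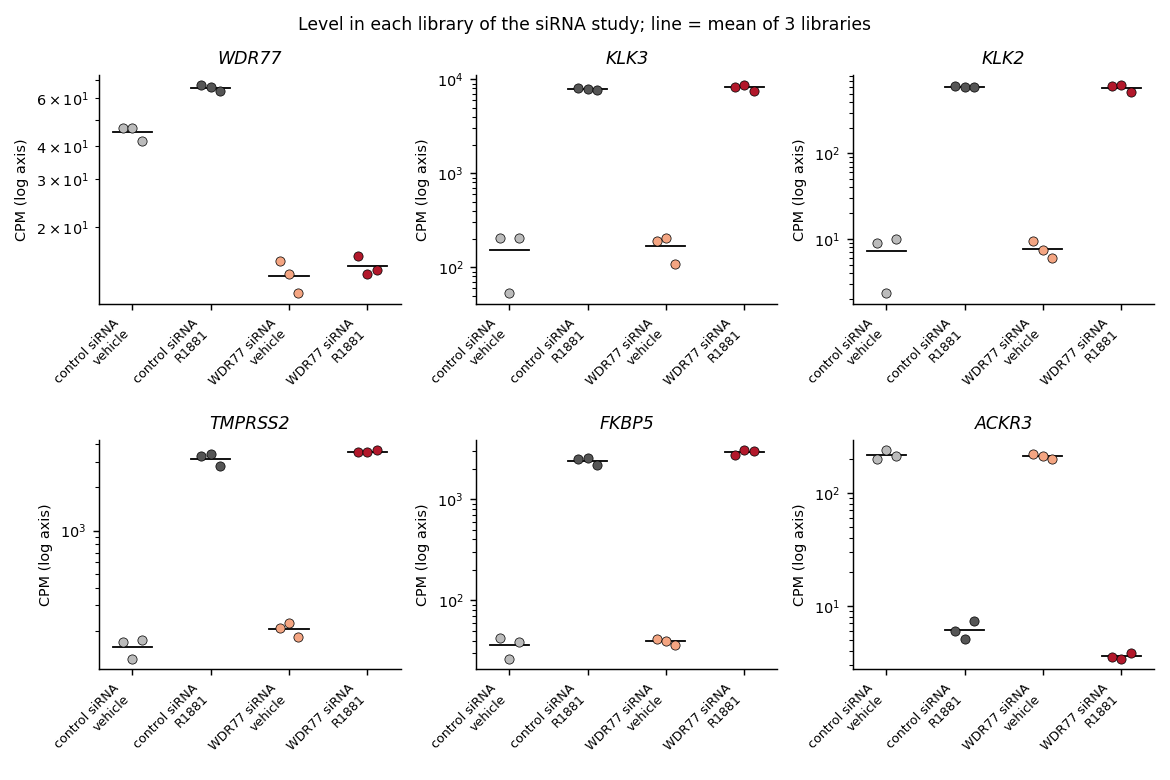
CPM on a log axis in each of the 12 libraries of the siRNA experiment for WDR77, 4 androgen-induced genes and the androgen-repressed gene ACKR3; each point is a library and each line the mean of 3. WDR77 is low in all 6 knockdown libraries, and the other 5 genes move with R1881 in both siRNA arms, with KLK3 at 7538 CPM or more in each R1881 library after WDR77 siRNA.

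The largest rises after WDR77 siRNA were of genes with almost no transcript in vehicle. ORM1, encoding the acute-phase plasma protein orosomucoid, had 0 counts in the 3 vehicle libraries and 51.5, 59.0 and 44.2 CPM with R1881, so it was at least 1157-fold higher against a floor of 3 counts over the group. Its near-identical neighbour ORM2 had 2 vehicle counts and 40.8 to 46.4 CPM with R1881, a ratio of 1472 (95% exact interval 407 to 12160), and reads of the pair could be exchanged. The glucose transporter gene SLC2A3 had 0 vehicle counts and 14.7, 14.2 and 15 CPM with R1881, at least 329-fold higher. STEAP4, which encodes a metalloreductase, went from 0.163, 0.263 and 0.179 CPM to 255, 304 and 285 CPM, a log2 fold change of 10.36 ± 0.32 (edgeR adjusted p = 2.00e-09). Both SLC2A3 and STEAP4 were thus close to silent without hormone and present in every R1881 library. Of the remaining genes among the 10 largest rises, CCDC141 had a ratio of 538 (149 to 4452), the amino acid transporter gene SLC38A4 a ratio of 396 (70.7 to 15700) and the pseudogene OR7E47P a ratio of 528 (94.3 to 20910). UGT2B24P, a pseudogene of a family with near-identical members, was at least 112-fold higher. PGC, the gene of the protease precursor progastricsin, rose by 6.95 ± 0.21 and the nicotinic receptor subunit gene CHRNA2 by 6.82 ± 0.13 on the log2 scale. CHRNA2 had 1.09 to 1.39 CPM with vehicle and 136 to 147 CPM with R1881. In the difference of response between arms none of these 10 genes passed the test (edgeR adjusted p of 0.615 or more, and of 0.771 or more without S35). The intervals and the floor take account of counting error alone.

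The largest falls included receptors, adhesion proteins and enzymes. CD200, encoding a membrane glycoprotein that signals to myeloid cells, was at 11.4, 7.35 and 10.9 CPM with vehicle, and 1 count was seen in all R1881 libraries together. That is a ratio of vehicle to R1881 of 573 (95% exact interval 102 to 22670). The protocadherin gene PCDH11X was at 7.31 to 11.6 CPM with vehicle with 3 counts in R1881, a ratio of 185 (63.0 to 899). ACKR3, encoding an atypical chemokine receptor that binds CXCL12, was at 201, 221 and 212 CPM with vehicle and 3.49, 3.40 and 3.82 CPM with R1881. The libraries of each group were close together and the log2 fold change was -5.88 ± 0.10 (edgeR adjusted p = 9.69e-23). UGT2B15, whose product glucuronidates androgens, fell from 64.3 to 71.1 CPM to 0.714 to 1.38 CPM, a log2 fold change of -5.85 ± 0.21. SLITRK3, a gene of a synaptic adhesion protein, fell from 91.7 to 101 CPM to 2.07 to 2.55 CPM, by 5.38 on the log2 scale. The others of the 10 largest falls were LINC02672 (-6.93), AMIGO2 (-6.83), CCN3 (-5.80), the diamine oxidase gene AOC1 (-5.63) and the guanine exchange factor gene VAV3 (-5.61), all with R1881 levels of 0.53 CPM or less.

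The gene lists described next were drawn from general knowledge of androgen action and of the cell line, with earlier results of these data known. Their counts are therefore a description and not an independent test. For each list, counts of genes called by edgeR stand against 27.7% higher and 25.5% lower among all genes tested, and list medians against -0.02. Of 35 androgen-induced genes tested (MSMB did not pass the filter on low counts), 33 rose and 1 fell, with a median log2 fold change of 3.70. ELL2, encoding a transcription elongation factor, rose from 40.3 to 43.3 CPM to 515 to 547 CPM, a log2 fold change of 3.67 ± 0.060. PMEPA1, encoding a membrane protein that restrains TGF-beta signalling, rose by 4.15 ± 0.071, and the stress-responsive gene NDRG1 by 3.72 ± 0.075, from 91.2 to 98.1 CPM to 1201 to 1284 CPM. The prostaglandin-degrading enzyme gene HPGD rose by 6.73 ± 0.15. The exceptions were STEAP2 and TSC22D3. STEAP2, a metalloreductase gene, was at -0.18 ± 0.058 (edgeR adjusted p = 0.0133) and not called without S9 or without S10. TSC22D3, a glucocorticoid-induced gene, was at 0.26 ± 0.11 (edgeR adjusted p = 0.0507), and at -0.03 with library totals (edgeR adjusted p = 0.801). With a block by run of the library number, 34 genes of the list were called higher. The summed level of this list was 5481 to 5641 CPM with vehicle and 35930 to 37210 CPM with R1881. Of 12 androgen-repressed genes 11 fell and 1 rose, with a median of -4.74. The steroid glucuronidation gene UGT2B17 fell from 396 to 436 CPM to 15.5 to 16.6 CPM (-4.70 ± 0.075), and the butyrylcholinesterase gene BCHE from 237 to 264 CPM to 9.80 to 10.6 CPM (-4.59 ± 0.079). The exception, the transporter gene SLC35F2, was higher by 3.38 ± 0.099, so it did not behave as its place in the list would have it.

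**Figure D3:**
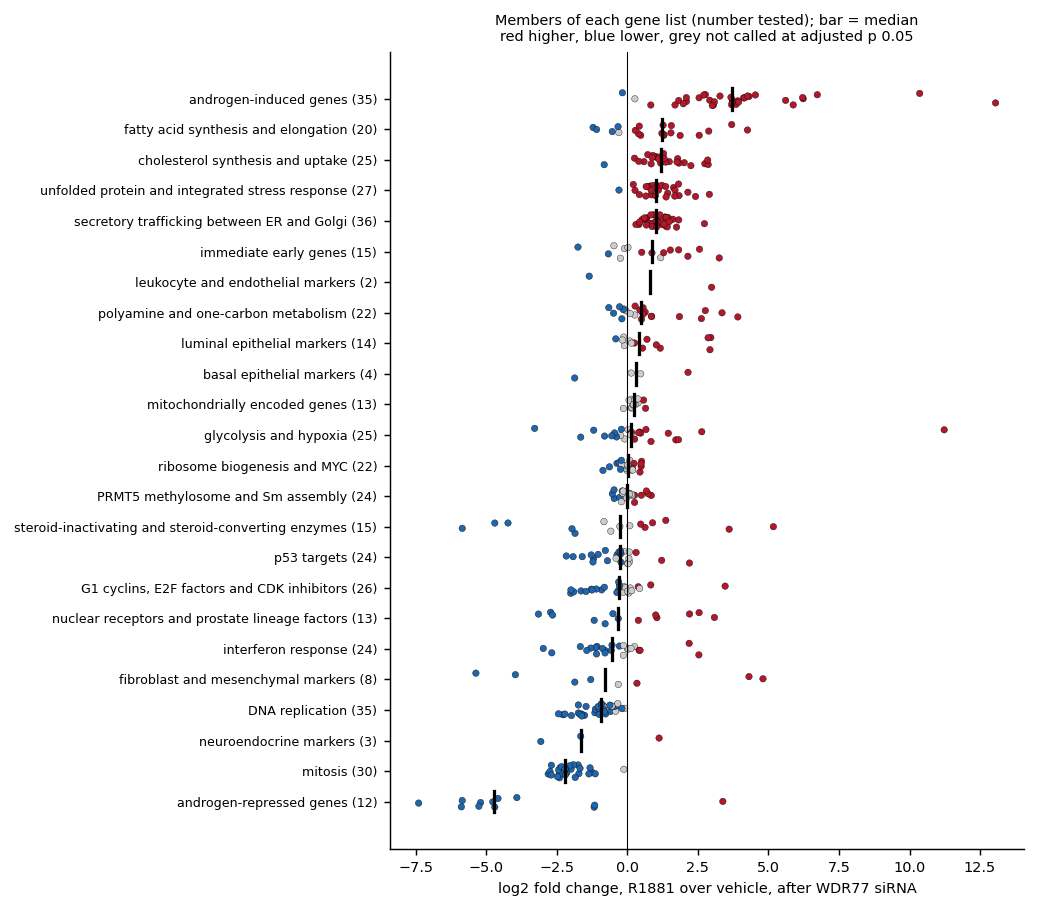
Log2 fold change of R1881 over vehicle after WDR77 siRNA (horizontal axis) for each tested member of 24 gene lists (vertical axis, number tested in brackets); red points are called higher, blue lower and grey not called, and black bars are medians. The androgen-induced list has the highest median (3.70), the androgen-repressed list the lowest (-4.74), and the mitosis list sits at -2.20.

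Nuclear receptors and lineage factors of the prostate split by direction, 6 higher and 7 lower of 13 tested. Steroid receptor genes of the list were lower: the glucocorticoid receptor gene NR3C1 at -2.72 ± 0.46, the progesterone receptor gene PGR at -2.65 ± 0.57 and the estrogen receptor beta gene ESR2 at -3.15 ± 0.67. These 3 were near the lower end of detection, NR3C1 at 1.25 to 2.10 CPM with vehicle. The ETS factor gene SPDEF rose from 82.7 to 88.2 CPM to 715 to 724 CPM (3.08 ± 0.076). CREB3L4, encoding a membrane-bound transcription factor of secretory cells, rose by 2.20 ± 0.077. FOXA1, a pioneer factor gene, rose by 0.39, and was at 0.09 and not called with library totals. Luminal markers had 8 of 14 higher and 1 lower (7 and 5 with library totals), with the keratin genes KRT8 (627 to 673 CPM to 4959 to 5130 CPM, 2.96 ± 0.067) and KRT18 (2.86 ± 0.063) and the splicing regulator gene ESRP2 (1.03 ± 0.065). KRT8 and KRT18 overlap on opposite strands in GENCODE 29, so reads in the overlap are uncertain. The epithelial adhesion genes CDH1 (0.09) and EPCAM (-0.10) did not pass the test.

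Steroid-metabolising enzymes changed in both directions, also within the UGT2B family. Of 15 tested, 6 rose and 5 fell, or 8 fell with library totals. Of the UGT2B glucuronosyltransferase genes, UGT2B28 rose from 0.626 to 0.706 CPM to 21.8 to 28 CPM (5.17 ± 0.21) and UGT2B11 from 2.02 to 3.64 CPM to 33.7 to 35.5 CPM (3.61 ± 0.17), while UGT2B15 and UGT2B17 fell as given above. The aldo-keto reductase genes AKR1C1 (-1.86), AKR1C2 (-1.96) and AKR1C3 (-4.23 ± 0.54) fell together, AKR1C3 from a mean of 2.98 CPM. SRD5A1, encoding a steroid 5-alpha reductase, rose from 33 to 36.4 CPM to 61.9 to 69.4 CPM (0.89 ± 0.068). Members of the UGT2B and AKR1C families are close in sequence, and how reads with several alignments were counted was not given, so single members are uncertain.

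Lipid synthesis genes rose broadly. Of 25 cholesterol genes 24 rose and 1 fell (22 and 1 with library totals), with a median log2 fold change of 1.18. HMGCS1, encoding an early enzyme of the pathway, was at 74.6, 79.2 and 75.9 CPM with vehicle and 355, 401 and 338 CPM with R1881 (2.25 ± 0.067, edgeR adjusted p = 3.72e-19). Every R1881 library was above every vehicle library, and the sterol sensor gene INSIG1 rose as well (2.85 ± 0.18). The sterol reductase gene TM7SF2 was the member that fell (-0.82 ± 0.073). The summed level of the list went from 2740 to 2797 CPM to 9100 to 9595 CPM. Of 20 fatty acid genes 15 rose and 4 fell (12 and 4 with library totals), with a median of 1.24. Rises were seen in the elongase genes ELOVL5 (282 to 312 CPM to 2151 to 2251 CPM, 2.88 ± 0.062) and ELOVL7 (4.26 ± 0.089), the acyl-CoA synthetase gene ACSL3 (3.70 ± 0.084) and the fatty acid synthase gene FASN (2.55). The elongase gene ELOVL6 (-1.09) and the mitochondria-linked carboxylase gene ACACB (-1.22) were lower.

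Genes of the secretory pathway moved upward almost without exception. All 36 tested genes of traffic between the endoplasmic reticulum and the Golgi rose, with a median of 1.01 and a range of 0.30 to 2.73, and 33 of the 36 were called higher with library totals. The coat protein gene SEC24D was at 27.1, 27.1 and 26.6 CPM with vehicle and 188, 184 and 165 CPM with R1881 (2.73 ± 0.070, edgeR adjusted p = 2.11e-20). SSR3, a subunit of the translocon-associated complex, rose by 1.82 ± 0.059 and SEC24B by 1.74 ± 0.059. Of 27 genes of the unfolded protein and integrated stress response 26 rose and 1 fell (23 and 1 with library totals), with a median of 1.03. The chaperone gene DNAJB9 went from 12.8 to 13.4 CPM to 94.4 to 104 CPM (2.90 ± 0.082). The degradation factor genes HERPUD1 (1.83 ± 0.064) and EDEM1 (1.68 ± 0.060) and the transcription factor genes XBP1 (1.37 ± 0.063) and ATF4 (0.73 ± 0.078) rose. SESN2, a stress-induced sestrin gene also placed among the p53 targets, fell (-0.30 ± 0.078).

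Among 22 polyamine and one-carbon genes 13 rose and 5 fell, and the lower count was 2 without S23, S37 or S38 and 3 without S10 or S24. With library totals 10 rose and 7 fell, and without S35 12 rose and 6 fell. Spermine synthase (SMS) went from 94.1 to 100 CPM to 941 to 1056 CPM (3.35 ± 0.069). The glycine methyltransferase gene GNMT rose by 3.91 ± 0.093 and AMD1, encoding the decarboxylase that supplies polyamine synthesis, by 1.84 ± 0.061. Of 25 glycolysis and hypoxia genes 12 rose and 8 fell with a median of 0.12, and with library totals 7 rose and 14 fell. The regulator of phosphofructokinase PFKFB2 (2.64 ± 0.071) and hexokinase 1 (HK1, 1.72 ± 0.057) rose, while EGLN3, a hypoxia-induced hydroxylase gene, fell (-3.29).

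Genes of the mitosis and replication lists mostly fell. Of 30 mitosis genes 29 fell and none rose, with a median log2 fold change of -2.20. NUSAP1, which was not called, was at 0.46 CPM with vehicle. Outside the lists, the centromere protein gene CENPN had a log2 fold change of 5.11, from a mean of 34.1 CPM with vehicle to 1180 CPM with R1881. The cell-cycle antigen gene MKI67 was at 83.0, 87.2 and 94.1 CPM with vehicle and 17.0, 22.9 and 17.7 CPM with R1881 (-2.20 ± 0.35, edgeR adjusted p = 0.000627). CDC20, which activates the anaphase-promoting complex, was at 35.7, 40.0 and 42.8 CPM with vehicle and 5.83, 6.21 and 4.89 CPM with R1881 (-2.81 ± 0.33). The mitotic kinase genes NEK2 (-2.33 ± 0.21) and AURKB (-2.41 ± 0.27) and the centromeric histone gene CENPA (-2.20 ± 0.27) had the smallest adjusted p of the list. Of 35 replication genes 29 fell and none rose, with a median of -0.93. The number that fell was 33 without S35 or with the 6 knockdown libraries alone, 34 with library totals and 26 without S23. The licensing factor gene CDT1 went from 31.2 to 33.7 CPM to 13.8 to 16.1 CPM (-1.15 ± 0.12), thymidylate synthase (TYMS) from 14.2 to 21.3 CPM to 3.11 to 5.04 CPM (-2.21 ± 0.27) and the clamp loader subunit RFC5 fell by 0.77. The summed level of the mitosis list was 919, 987 and 1143 CPM with vehicle and 230, 282 and 224 CPM with R1881, so the groups were well apart. In bulk RNA fewer cycling cells and less transcript per cell cannot be told apart.

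Regulators of entry into the cycle fell more often than they rose. Of 26 cyclin, E2F and CDK inhibitor genes 15 fell and 3 rose, or 19 and 1 with library totals. CDK6 rose from 0.223 to 0.761 CPM to 3.35 to 5.05 CPM (3.46 ± 0.33). The inhibitor genes CDKN2C (-2.01 ± 0.18) and CDKN2A (-1.27 ± 0.14) fell, and E2F7 (-2.0) and E2F2 (-1.90) were the lowest of the E2F genes. CDKN1A, encoding p21, had a value of -0.11 and did not pass the test. Of 24 p53 targets 14 fell and 3 rose, or 18 and 2 with library totals. The sestrin gene SESN1 (-1.92 ± 0.067) and TP53INP1 (-1.22 ± 0.060) fell, and the death receptor gene TNFRSF10B rose from 103 to 110 CPM to 467 to 518 CPM (2.20 ± 0.060).

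The list that holds WDR77 and its partners had small changes. Of its 24 genes of the PRMT5 methylosome and Sm assembly, WDR77 included, 6 rose, 5 fell and 13 did not pass the test. These shares were near those among all genes, and log2 fold changes were -0.53 to 0.85. With library totals 2 rose and 13 fell, so the direction within this list depends on the scaling. PRMT5 was at 59.3, 68.9 and 66.1 CPM with vehicle and 76.7, 83.9 and 71.7 CPM with R1881 (0.26 ± 0.068, edgeR adjusted p = 0.00275), but its value was -0.04 and not called with library totals (edgeR adjusted p = 0.618). COPRS, a PRMT5 cofactor gene (0.85 ± 0.066), and LSM10, an Sm-like protein gene of the histone pre-mRNA complex (0.67 ± 0.076), rose and GEMIN4 of the SMN complex fell (-0.53 ± 0.095). SMN1 (0.50) and SMN2 (0.74) are near-identical and uncertain, and neither was called with library totals. Ribosome biogenesis was likewise split, with 6 of 22 higher and 6 lower, or 2 and 12 with library totals, among them GNL3 (0.48 ± 0.059) and RRP12 (0.50 ± 0.071), both nucleolar protein genes, and the rRNA methyltransferase gene FBL (-0.64 ± 0.072).

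Of 24 interferon-response genes 14 fell and 4 rose (16 and 2 with library totals). The rises included the GTPase gene MX1 from 10.2 to 12.9 CPM to 59.6 to 77.1 CPM (2.53 ± 0.13) and the ISG15 ligase gene HERC5 (2.19 ± 0.18), and the antiviral membrane protein gene IFITM3 was lower (-0.57 ± 0.073). The summed level of this list was 374 to 395 CPM with vehicle and 370 to 393 CPM with R1881, so the ranges overlapped. Of 15 immediate early genes 8 rose and 2 fell (7 and 5 with library totals), among the rises the nuclear receptor gene NR4A1 (6.53 to 7.01 CPM to 61.6 to 71.7 CPM, 3.26 ± 0.17), KLF6 (1.52 ± 0.13) and the phosphatase gene DUSP1 (1.28 ± 0.086). Mitochondrially encoded genes had 2 of 13 higher, MT-ND5 (0.57 ± 0.15) and MT-ND6 (0.64 ± 0.17), while MT-ND2 (0.16 ± 0.077) did not pass the test. This count depended on the fit: 8 higher and 1 lower without S35, 7 higher with the 6 knockdown libraries alone, and 0 higher and 2 lower with library totals.

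Markers of other cell types were checked in the same libraries. Members of each list differed. The basal markers KRT5 and KRT17, the fibroblast markers COL1A2 and DCN and the leukocyte and endothelial markers CD3E, PECAM1 and CDH5 had no count in the 6 libraries. TP63 and PTPRC were at 0 in all but 1 library each. Other markers of these types were present. With vehicle COL1A1 was at 16.7 to 19.5 CPM, COL3A1 at 7.46 to 8.53 CPM and VWF at 9.18 to 13.1 CPM. KRT14 was at 6.63 to 8.03 CPM with R1881. Among 12 neuroendocrine markers 3 were tested: neurotensin (NTS, -3.07 ± 0.26) and the enolase gene ENO2 (-1.66 ± 0.13) fell and the synaptophysin gene SYP rose (1.12 ± 0.19). The list summed to 39.9 to 40.8 CPM with vehicle and 14.9 to 19.1 CPM with R1881. Of 8 tested fibroblast and mesenchymal genes 4 fell, among them COL5A2 (119 to 121 CPM to 1.91 to 3.54 CPM, -5.37 ± 0.15), COL3A1 (-3.97 ± 0.25) and fibronectin (FN1, -1.86 ± 0.15). The genes that rose numbered 3, among them ACTA2 (4.31 ± 0.22) and SNAI2 (4.81 ± 0.38), but 2 with library totals, with DESeq2 or without S35. The summed level of the list was 1418 to 1627 CPM with vehicle and 391 to 474 CPM with R1881, most of it FN1. Of 4 tested basal genes KRT14 rose (1.30 to 1.79 CPM to 6.63 to 8.03 CPM) and ITGB4 fell (-1.87 ± 0.19), ITGA6 was at 0.13 and not called, and the list summed to 43.2 to 43.4 CPM and 46.2 to 47.2 CPM. Of the leukocyte and endothelial list only CSF1R (2.98 ± 0.59) and VWF (-1.35 ± 0.34) were tested, and the sums were 9.35 to 13.5 CPM and 4.59 to 8.17 CPM. The labels name LNCaP cells alone, and KRT8, KRT18 and KLK3 were present in every library.

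The response after WDR77 siRNA was then set beside that with control siRNA. In control siRNA cells R1881 changed 9143 genes (51.1%), 4601 higher (25.7%) and 4542 lower (25.4%). Across the 17893 genes the log2 fold changes of the 2 arms had a Pearson r of 0.90, a description across genes that share libraries and are not independent. Genes called in the same direction in both arms numbered 7730, which is 81.2% of the calls after WDR77 siRNA and 84.5% of those with control siRNA, and 8 were called in opposite directions. Without S35 the control response was called for 8824 genes (49.3%), r was again 0.90, and 7702 genes were shared (78.6% and 87.3%), with 6 in opposite directions. The difference in response was called for 0 genes with edgeR (0%), with 1484 at an unadjusted p under 0.05 (920 with a higher response and 564 with a lower one after WDR77 siRNA) and 56 called with DESeq2. Without S35, and over the same genes, 42 passed (0.235%), of which 14 were higher and 28 lower. The 1780 genes called only after WDR77 siRNA held none with a called difference in the fit of all 12 libraries, and of 2093 such genes without S35 there was 1, so they are not shown to be particular to the knockdown.

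**Figure D4:**
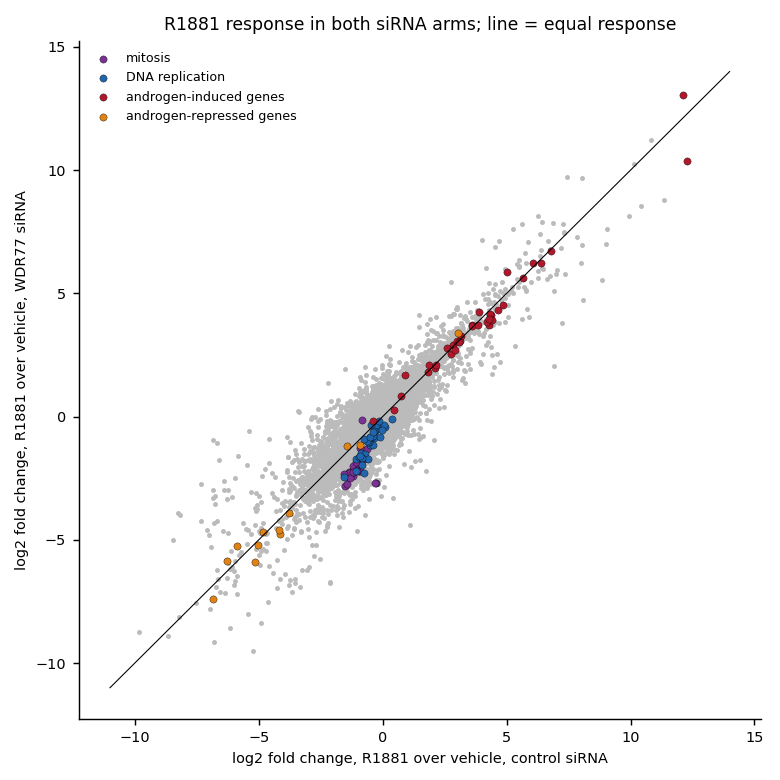
Log2 fold change of R1881 over vehicle after WDR77 siRNA (vertical axis) against that with control siRNA (horizontal axis) for 17893 genes, with 4 gene lists coloured; the line marks equal responses. Most points follow the line, and the mitosis genes lie mostly below it, with medians of -2.20 and -1.04.

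Of the 24 lists, the mitosis genes had the widest gap in median between the arms, and the replication genes are given with them. The mitosis list had a median log2 fold change of -2.20 after WDR77 siRNA and -1.04 with control siRNA, or -1.37 without S35, and in control siRNA cells 20 of its 30 members were called lower, where 25.4% of all genes were, or 26 without S35 (24.5% of all genes). For replication the medians were -0.93 and -0.52, or -0.71 without S35, with 16 of 35 called lower in control siRNA cells, or 32 without S35. Over all genes the control siRNA median was -0.04. No member of either list passed the test of the difference over all 12 libraries. Without S35 the difference was called lower for 5 mitosis genes, against 0.156% of all genes tested, namely MKI67 (-0.96, edgeR adjusted p = 0.000169), CDC20 (-1.03), TPX2 (-0.64), BUB1B (-0.79) and KIF2C (-0.94), and for the replication gene MCM10 (-1.19). MKI67 was at 119, 117 and 45.2 CPM in the control vehicle libraries S7, S21 and S35, and at 48.1, 51.5 and 48.0 CPM with R1881. S35 was thus as low as the hormone-treated control libraries, whereas all 3 vehicle libraries with WDR77 siRNA were at 83.0 CPM or more. The summed mitosis level was 1195, 1199 and 519 CPM in the same control vehicle libraries and 431, 489 and 475 CPM in the control R1881 libraries, all 3 above the 224 to 282 CPM of the R1881 libraries with WDR77 siRNA. Compared directly, 1291 genes (7.22%) differed between WDR77 and control siRNA under R1881, 698 higher (3.90%) and 593 lower (3.31%). Of the mitosis genes 4 were lower there (CDC20, AURKB, KIF2C and CENPA) and of the replication genes 4 (CDT1, CDC45, POLD1 and TYMS). S35 is not in that contrast but enters the estimate of the spread. Without S35, 1999 genes (11.2%) differed under R1881, and 26 of 30 mitosis and 26 of 35 replication genes were lower, against 6.23% of all genes. Leaving out S35 was chosen after the data were seen, and S35 was itself low for the mitosis genes. The larger counts without it are therefore not independent evidence. The median difference in response of the mitosis list was -1.01 with all 12 libraries and -0.72 without S35. With vehicle 273 genes (1.53%) differed over all 12 libraries, with no mitosis or replication gene among them. Without S35 there were 489 (2.73%), and 3 mitosis genes (CDC20, MKI67 and TPX2) and 4 replication genes (GINS1, MCM2, MCM5 and TK1) were lower after WDR77 siRNA, against 1.55% of all genes, with list medians of -0.22 and -0.29. The 3 vehicle libraries with WDR77 siRNA, at a summed mitosis level of 919 to 1143 CPM, lay below S7 and S21 and above S35. In empty-vector cells the medians of the response were -1.55 for mitosis and -1.29 for replication, so they lay between or beyond those of the siRNA arms.

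**Figure D5:**
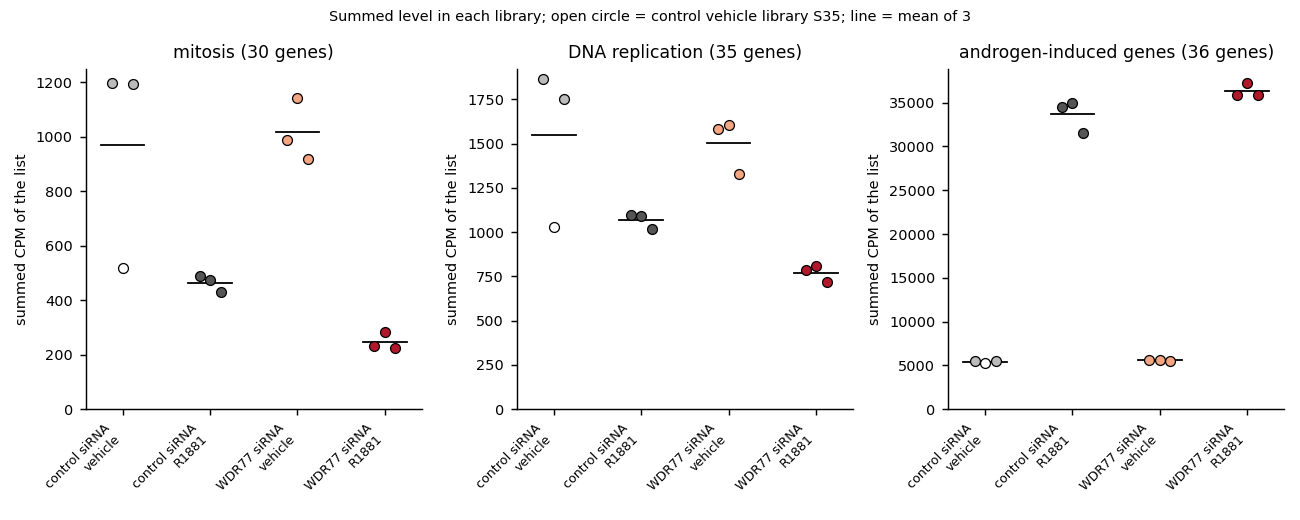
Summed CPM (vertical axis, from 0) of the mitosis, DNA replication and androgen-induced lists in each of the 12 libraries of the siRNA experiment; each point is a library, the open circle is control vehicle library S35 and lines are means of 3. For mitosis the R1881 libraries with WDR77 siRNA sit at 224 to 282 CPM, below the control R1881 libraries at 431 to 489 CPM, and S35 sits at 519 CPM.

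The androgen-induced and androgen-repressed lists had similar medians in both arms, 3.70 and 3.60 for the first and -4.74 and -4.51 for the second, and in empty-vector cells 2.69 and -4.31. No member passed the test of the difference over the 12 libraries. Without S35 the control medians were 3.59 and -4.57, and the difference was called for 3 of 35 androgen-induced genes, higher for the kinase gene SGK1 (0.77) and ELOVL7 (0.45) and lower for NDRG1 (-0.65), and for 2 of 12 androgen-repressed genes, both lower, ACKR3 (-0.83) and the amino acid decarboxylase gene DDC (-0.55), against 0.0782% of all genes higher and 0.156% lower. The genes with the smallest adjusted p for the difference were named by rule. With a higher response after WDR77 siRNA these were PFKFB2 (0.57, edgeR adjusted p = 0.0569), and CD274, encoding the immune checkpoint ligand PD-L1, SRD5A1, the glutamine synthetase gene GLUL, PGM3 of the hexosamine pathway and SIPA1L2, each at an adjusted p of 0.0888. USP33, SPCS3 and SGK1 were tied at the same edgeR adjusted p, so the genes named at that value do not stand apart from them. CD274 was at 29.2, 34.5 and 35.8 CPM with vehicle and 22.9, 28 and 27.5 CPM with R1881 after WDR77 siRNA (-0.35 ± 0.094), against -1.07 with control siRNA, or -1.10 without S35. With a lower response they were NDRG1 (-0.56, adjusted p = 0.0569), ACKR3 (-0.73), EIF4EBP1 (-0.51), encoding a translation repressor, GULP1 (-0.38), SMCO4 (-0.47) and the proline-pathway gene ALDH4A1 (-0.47), with edgeR adjusted p between 0.0569 and 0.117. Without S35 all but EIF4EBP1 and ALDH4A1 of the 12 genes named by rule passed, NDRG1 with an edgeR adjusted p of 0.000227. NDRG1 still rose by 3.72 after WDR77 siRNA and by 4.28 with control siRNA (4.34 without S35), so the called difference is one of degree.

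Response genes were also chosen from the empty-vector libraries, which share no library with the siRNA experiment. R1881 changed 9130 of 17772 genes there (51.4%), 24.9% higher and 26.4% lower, and by at least 2-fold 7.1% higher and 7.82% lower. Of the 1200 genes with a rise of at least 2-fold in empty-vector cells that were also tested in the siRNA experiment, 985 (82.1%) were called higher after WDR77 siRNA, against 27.7% of all genes, and 7 were called lower. Their median log2 fold change was 1.62 in empty-vector cells, 1.65 after WDR77 siRNA and 1.56 with control siRNA (1.57 without S35). Of 1341 genes that fell as much, 1149 (85.7%) were called lower after WDR77 siRNA, against 25.5%, and none was called higher. Their medians were -1.50, -1.70 and -1.40 (-1.46 without S35). None of the genes of either set had a called difference between arms with all 12 libraries, and 9 of the first and 21 of the second set did without S35. Across 17236 genes the response after WDR77 siRNA and that in empty-vector cells had a Pearson r of 0.83, again across genes.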

How the data were processed

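The authors deposited raw read counts for 60649 gene features. The submitters' processing notes list bcl2fastq 2.20, the aligner STAR 2.7.9a, featureCounts with Subread 1.6.4 and the build GRCh38.p7. Per the labels' protocols, RNA was poly(A)-enriched. The strand setting, the annotation release and the handling of reads with several alignments were not given in the sources used here.

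Counts of the 12 siRNA libraries were fitted with edgeR 4.0.16 (R 4.3.3): filterByExpr by group, TMM scaling, 1 mean per group, no covariate, 8 residual degrees of freedom and the robust quasi-likelihood F test, with Benjamini-Hochberg adjustment over 17893 genes and calls under 0.05. The empty-vector response was fitted likewise on the 12 vector libraries (17772 genes). SE is the size of the log2 fold change over the square root of F. CPM are on TMM-scaled library sizes. A group with 0 counts was set to a floor of 3, and ratios with 1 to 3 counts carry exact 95% intervals. The scripts were tested on simulated data.

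Alternatives were RLE factors, library totals, no filter, DESeq2 1.42.0, a block by run, other sets of libraries and leaving out each library; leaving out S35 over the same genes was chosen after seeing the data. Members and lists were chosen with earlier results of these data known. Named genes were WDR77, KLK3, KLK2, TMPRSS2 and FKBP5, the 10 largest rises and falls (called, at least 5 CPM in the higher group, no overlap between groups, a symbol that is not a clone name), in each list the 3 genes with the lowest adjusted p, and 6 per direction for the difference between arms. Some genes that this rule names are not reported here. Other list members named, and CENPN, were chosen after their values were seen, and clear exceptions to a list were named for that reason. Gene positions are from GENCODE 29 and promoters from RefSeq (GRCh38.p14).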

Additional observations from a re-analysis of the deposited data

How the results depend on the processing

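The total of genes that changed with R1881 after WDR77 siRNA was 8698 to 9088 when 1 of the 6 libraries was left out, and lay within 1.5 times the reported 9518 under every alternative tried. With library totals 2775 genes were higher and 8096 lower. That scaling turned the value of EIF4EBP1, not called in the main analysis, to -0.20 (edgeR adjusted p = 0.0381), and MT-ND5 and MT-ND6 lost their calls under it, MT-ND6 also with the 6 libraries alone. No other gene named by the rule lost a called response after WDR77 siRNA under any alternative. The difference between arms, 0 genes as reported, was 1 with library totals (1 lower), 112 with no filter (48 higher, 64 lower), 56 with DESeq2 (30 and 26), 40 with all 24 libraries (29 and 11) and 42 without S35 over the same genes (14 and 28). Leaving out 1 library gave 0 to 43 genes (0 to 14 higher and 0 to 29 lower), with 43 for S35 and at most 2 for any other; the cause was not tested. The comparison of WDR77 with control siRNA in vehicle, 273 genes, gave 460 with DESeq2 (241 higher) and 489 without S35 (212 higher, 277 lower). Under R1881, 1291 genes became 1999 without S35 (884 higher, 1115 lower).

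Library numbers run in 3 sets of 14, and no label says that a set marks a shared culture or day. Deviations from the group means of libraries in the same set correlated at -0.18, -0.11 and 0.22 in the knockdown and 0.10, 0.13 and 0.03 in the control arm. With 3 libraries in a group, such values cannot decide whether a set shared a culture or day. With the replicate block, 9549 genes changed after WDR77 siRNA (4954 higher and 4595 lower), and the difference between arms was called for 16 (11 higher, 5 lower). Depth limits genes under about 1 CPM, for which 3 counts in a library correspond to 0.112 to 0.191 CPM.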

Other observations

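A set of genes went from near silence to detection, or the reverse, in the libraries with WDR77 siRNA. With at most 3 counts over the 3 vehicle libraries and a mean of at least 1 CPM with R1881 there were 35 genes, and 28 met the opposite rule. Of these, 18 and 13 met the same rules with control siRNA. Beside the genes described above, the first set held CACNG4, a calcium channel subunit gene (3 counts with vehicle and 209 with R1881), GHRHR, the growth hormone releasing hormone receptor gene (2 and 115), the matricellular protein gene CCN2 (1 and 82), the androgen-linked long non-coding RNA gene ARLNC1 (1 and 91), and several TRIM49 and TRIM53 family members and POTEH, whose copies are near-identical and uncertain. The second set held the phospholipase gene PLD1 (299 counts with vehicle and 0 with R1881), the WNT receptor gene ROR2 (284 and 1), the reelin adaptor gene DAB1 (226 and 0), the drug efflux pump gene ABCG2 (103 and 3) and the glucagon gene GCG (86 and 3). Genes that missed the rules with control siRNA could still move the same way there. PLD1 had 253 counts with control siRNA and vehicle and 5 with control siRNA and R1881, ROR2 had 257 and 8, and CACNG4 had 5 and 195. The genes of both sets were chosen by their counts after WDR77 siRNA and carry no further test.

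By GENCODE 29 class, 33.2% of 13094 protein-coding genes were higher with R1881 after WDR77 siRNA and 27.6% lower. Of 1023 lincRNA genes 10.3% were higher and 26% lower, and of 1396 antisense genes 12.7% and 19.8%. These classes differ in level, and the strand setting was not given, so antisense counts are uncertain. The part of level in these shares was not tested.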
